A study of Mus musculus with 60 samples.

Results

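The ABC genes of the mouse were followed in primary hepatocytes given HGF (hepatocyte growth factor), IL-6 (interleukin 6) or the combination. A gene was a member if its symbol is Abc, a letter from a to g, digits and at most 1 further letter, and its signal was that of its brightest probe set, by the mean of the 60 arrays. This gave 45 of the 18194 genes on the array with a probe set of their own, of which 41 passed the intensity filter that 14513 genes passed (above the array's 40th percentile on at least 2 arrays). Abca13, Abca14, Abca16 and Abcd2 did not pass and were not tested. Abca9 and Abcg3 passed on 4 and 7 of the 60 arrays, while Abcc8, Abca12 and Abcc6 passed on 49, 52 and 59 and the other 36 on all 60. Abca10 was not analysed here. The hepatocytes came from male C57BL/6N mice of 8 to 12 weeks, from 1 animal or a pool of up to 3, and were plated on collagen I in serum medium with dexamethasone and insulin. All groups, controls included, then spent 24 h without serum in dexamethasone before time 0. Cells then received 40 ng/ml recombinant mouse HGF, 40 ng/ml recombinant human IL-6, both together, or nothing (unstimulated). RNA was hybridised to Affymetrix Mouse430_2 arrays at 0 h (4 unstimulated arrays) and at 7 later hours (0.5, 2 and 4 h, 8 and 16 h, and 24 and 32 h, with 2 arrays for each of the 4 conditions), and values are log2 intensities. No label ties replicate arrays to separate cultures or animals, so p-values measure only the spread between these arrays, which may be technical.

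ABC proteins bind ATP in a pair of conserved domains, and most of them use its hydrolysis to move lipids, bile salts, conjugates or drugs across a membrane. In a hepatocyte the canalicular membrane carries the exporters that make bile: Abcb11 for bile salts, Abcb4 for phosphatidylcholine, Abcg5 with Abcg8 for sterols, Abcc2 for conjugates, and Abcg2, Abcb1a and Abcb1b for drugs and xenobiotics. The basolateral membrane faces the blood and carries Abcc1, Abcc3, Abcc4 and Abcc6, while Abca1 loads cholesterol and phospholipid onto apolipoprotein A-I. ABCE and ABCF members hold the ATP-binding domains without a membrane domain and work in translation.

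Several facts of the arrays bear on every comparison with unstimulated cells. The 3' minus 5' difference of the labelling control dap ran from 1.25 to 1.46 in 10 arrays, those of unstimulated cells up to 4 h, against 2.54 to 3.18 in 49 others, with 3.85 on the IL-6 array of 24 h, replicate 1. The same array had a Gapdh 3' minus 5' difference of 0.75, against -0.17 to 0.25 on the other 59, and an actin difference of 0.94, within the range of 0.20 to 0.96 of the others. Without it, the late IL-6 differences of all 18 genes given in full kept their direction and side of the threshold, and 24 members were called in place of 23. Stimulated and unstimulated arrays of 0.5 to 4 h therefore differ in this control, and counts over 8 to 32 h or over 16 to 32 h are given beside those over all hours for the ABC genes and their main groups. The hybridisation control bioB was 8.04 to 8.31 on unstimulated arrays of 8 to 32 h and 5.21 to 6.79 on stimulated arrays of 16 to 32 h, whereas bioC ranges overlapped (9.37 to 9.67 and 9.38 to 9.90). The part of these controls in the results was not tested. Defining hepatocyte markers had mean log2 intensities of 10.08 to 14.34 over the arrays (5 of 6 measured), against 4.70 to 6.28 for 6 Kupffer cell markers, 3.96 to 7.15 for 5 endothelial, 2.95 to 6.39 for 5 stellate, 4.23 to 7.42 for 4 cholangiocyte and 3.33 to 5.29 for 4 lymphocyte and neutrophil markers. Hepatocyte markers themselves fell at 16 to 32 h, 4 of 5 under HGF, 4 of 5 under IL-6 and 5 of 5 under both, with median log2 differences of -0.36, -0.28 and -0.56. Falls over these hours were called for 24%, 21.1% and 24.7% of all genes. Endothelial markers fell under HGF (4 of 5). The log2 of their summed intensities, added on the linear scale, was 7.74 to 7.97 against 8.04 to 8.23 in unstimulated cells. In a culture measured in bulk, fewer cells of a type and less RNA per cell cannot be told apart.

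Abcb1a, Abcb1b and Abcb4 lie side by side on chromosome 5 within 392.1 kb (GRCm38.p6, RefSeq), and Abcb4 fell under all 3 treatments while Abcb1a and Abcb1b rose. Their upstream sequences are therefore shown, together with those of Abcb11 and Abcc2, which hold a nuclear receptor half-site. Each runs 5' to 3' on the gene's own strand, ends where the annotated gene begins, and carries motif matches on either strand in capitals.
Abcb1a, chr5:8566841-8567090, plus strand: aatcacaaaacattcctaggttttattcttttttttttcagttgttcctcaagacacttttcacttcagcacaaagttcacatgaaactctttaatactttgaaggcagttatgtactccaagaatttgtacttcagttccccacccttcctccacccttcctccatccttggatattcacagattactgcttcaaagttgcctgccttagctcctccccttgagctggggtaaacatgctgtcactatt
Abcb1b, chr5:8797897-8798146, plus strand: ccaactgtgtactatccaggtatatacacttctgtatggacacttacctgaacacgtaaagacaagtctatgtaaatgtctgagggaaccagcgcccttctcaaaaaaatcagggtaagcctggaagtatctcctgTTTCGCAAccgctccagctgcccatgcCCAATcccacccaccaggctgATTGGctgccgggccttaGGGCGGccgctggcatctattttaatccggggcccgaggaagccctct
Abcb4, chr5:8893471-8893613, plus strand: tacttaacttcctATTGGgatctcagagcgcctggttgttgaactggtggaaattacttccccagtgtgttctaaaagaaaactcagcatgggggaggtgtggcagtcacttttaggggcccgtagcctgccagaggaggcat
Abcb11, chr2:69342617-69342866, minus strand: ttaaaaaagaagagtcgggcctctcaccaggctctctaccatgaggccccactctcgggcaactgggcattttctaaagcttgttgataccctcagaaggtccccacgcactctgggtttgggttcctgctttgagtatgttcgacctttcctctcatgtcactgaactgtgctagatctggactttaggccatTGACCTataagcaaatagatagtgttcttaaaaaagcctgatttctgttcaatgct
Abcc2, chr19:43782058-43782307, plus strand: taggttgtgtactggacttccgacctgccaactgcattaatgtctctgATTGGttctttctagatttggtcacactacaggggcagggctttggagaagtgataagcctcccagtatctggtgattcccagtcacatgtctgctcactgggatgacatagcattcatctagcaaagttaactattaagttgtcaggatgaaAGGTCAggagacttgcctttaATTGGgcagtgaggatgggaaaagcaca

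Motifs were searched on both strands in RefSeq windows of 300 bases, 250 before a gene start and 50 from it on. They were TTCNNNGAA (STAT), TGANTCA (AP-1), TTGCNNAA (C/EBP), AGGTCA (nuclear receptor half-site), GGGCGG (GC box) and CCAAT. Windows were found for 35 members (42 windows) and not for 10. In the Abcb1b window a C/EBP match began 114 bases before the start, CCAAT matches 87 and 66 bases and a GC box 48 bases before it, and these 4 are the capitals printed for it. The Abcb4 window holds a CCAAT match 237 bases and a GC box 46 bases before the start it is counted from. RefSeq also has an earlier Abcb4 start inside that window, at which the printed stretch of 143 bases ends, so it shows the CCAAT match and not the GC box. The Abcb1a window holds none of the 6 motifs. The AGGTCA half-site is printed in the Abcb11 and Abcc2 stretches, and 16.7% of member windows held it against 16.3% of all 32851 windows. The STAT motif stood in 4.76% of member windows against 8.3% of all, the C/EBP motif in 11.9% against 10.8%, the GC box in 21 of 42 member windows against 35.7% of all and CCAAT in 35.7% against 37.4%. No member window held the AP-1 motif, which 7.81% of all windows hold. The C/EBP letters do not overlap any other match in the Abcb1b window, and a match describes letters only.

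Across the family, more members fell than rose under each treatment. A member was called over the 7 hours by limma's moderated F-test with Benjamini-Hochberg adjustment over all 14513 genes at a threshold of 0.05, with the direction taken at the hour of its largest difference. Under HGF 11 members rose, 16 fell and 14 did not pass, where 62.6% of all genes were called. IL-6 gave 5 rises and 19 falls, against a background of 55.1%, and the combination 5 rises and 24 falls, against 68%. The members' called shares are thus near the background. Among all genes the falls made up 32.8% under HGF, 31.7% under IL-6 and 36.7% under both, beside rises of 29.8%, 23.4% and 31.3%, and whether the members' balance differs from this was not tested. Over 8 to 32 h the members gave 8 rises and 15 falls under HGF, where 55.1% of all genes were called (27.2% up, 27.9% down). They gave 5 and 19 under IL-6, against 42% (18.7% up, 23.3% down), and 7 and 19 under both, against 57.2% (28.5% up, 28.7% down).

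For size, each gene is described by its mean log2 difference over 16, 24 and 32 h, called the late difference below, which rests on 6 treated and 6 unstimulated arrays. By this measure 9 members rose and 15 fell under HGF, against a background of 47.2% (23.3% up, 24% down). The counts were 6 and 17 under IL-6, against 38.7% (17.6% up, 21.1% down), and 7 and 21 under both, against 51.2% (26.5% up, 24.7% down). Over the 41 members the median late difference was -0.04, -0.14 and -0.14, and over all genes it was 0.01 under HGF and 0.00 under the combination. Changes of at least 2-fold were few: 2 members under HGF, Abcb4 and Abcb1b, 1 under IL-6, Abcb4, and 5 under both, Abcb4, Abcb1b, Abca6, Abca8b and Abcb6. All genes reached that size in 1.39%, 1.12% and 2.31%.

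**Figure D1:**
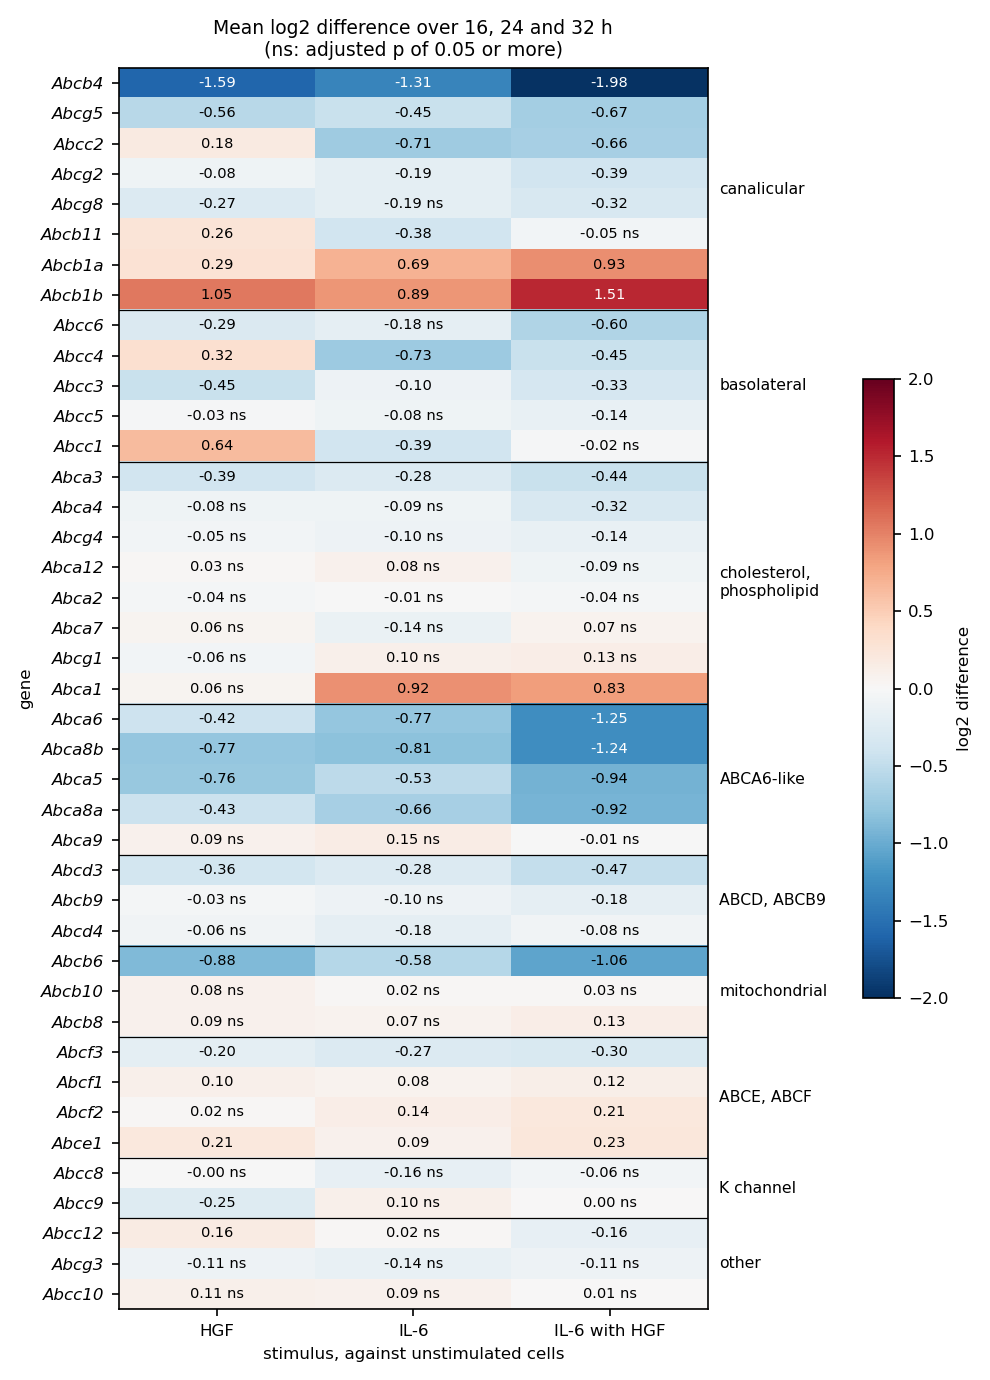
Late log2 differences (mean over 16, 24 and 32 h against unstimulated cells) of the 41 tested members under HGF, IL-6 and both, grouped by role, with red for higher, blue for lower and ns for an adjusted p of 0.05 or more. Abcb4 is the bluest row (-1.59, -1.31 and -1.98) and Abcb1b the reddest (1.05, 0.89 and 1.51), and both sit in the canalicular group.

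All 8 canalicular exporters changed under HGF over the 7 hours (5 rose, 3 fell), and 7 of 8 under IL-6 (2 rose, 5 fell) and under both (2 rose, 5 fell), in tests that called 62.6%, 55.1% and 68% of all genes. Over 8 to 32 h the HGF calls were 3 rises and 5 falls, and those of IL-6 and of both were 2 and 5. By the late difference 4 rose and 4 fell under HGF, and 2 rose and 5 fell under IL-6 and under both. The drug exporters Abcb1a and Abcb1b rose under every treatment, while the phospholipid floppase Abcb4 and the sterol exporter gene Abcg5 fell under every treatment.

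Abcb4, which flops phosphatidylcholine into bile, had the largest late difference of any member. At 24 h its log2 intensity was 9.61 and 9.84 in unstimulated cells, 7.88 and 7.98 under HGF, 8.20 and 8.31 under IL-6, and 7.51 and 7.38 under both. No treated array reached an unstimulated one at any hour from 8 h on, and at 0.5 h all treated arrays lay above. Over 16 to 32 h unstimulated arrays ran from 9.05 through a median of 9.66 to 9.90, HGF arrays from 7.76 through 7.95 to 8.11, IL-6 arrays from 7.75 through 8.26 to 8.64, and combination arrays from 7.38 through 7.49 to 7.90. The late difference was -1.59 under HGF (SE 0.05, 3.02-fold lower, limma adjusted p = 1.66e-28), -1.31 under IL-6 (2.48-fold lower, adjusted p = 2.13e-25) and -1.98 under both (3.95-fold lower, adjusted p = 9.86e-33). Under HGF the fall was -0.94 (SE 0.09) at 8 h, -1.73 at 16 h, -1.79 at 24 h and -1.26 at 32 h. Between 4 and 8 h the unstimulated mean went up by 0.41, across the change in the dap control, while the HGF mean, from arrays alike in that control, changed by -0.31. Against 0 h (mean 9.31, SD 0.15, n = 4), Abcb4 at 24 h stood 0.41 higher in unstimulated cells and at -1.38 with HGF, -1.05 with IL-6 and -1.87 with both.

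Abcb1b, a drug exporter of the P-glycoprotein type and neighbour of Abcb4, moved the other way. At 24 h it read 9.25 and 8.94 in unstimulated cells, 10.31 and 10.27 under HGF, 10.10 and 10.16 under IL-6, and 10.79 and 10.98 under both. HGF and combination arrays lay above the unstimulated ones at all 7 hours, and IL-6 arrays at 6 of them. Its late difference was 1.05 under HGF (SE 0.06, 2.07-fold, limma adjusted p = 6.5e-19), 0.89 under IL-6 (1.85-fold, adjusted p = 2.74e-16) and 1.51 under both (2.85-fold, adjusted p = 4.19e-25). Its second probe set has a mean log2 intensity of 3.18, below the filter, against 9.41 for the one used, and did not show the rise: it gave -0.09 under HGF (adjusted p = 0.403), 0.02 under IL-6 (adjusted p = 0.911) and -0.0031 under both (adjusted p = 0.98).

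Abcb1a, the other mouse P-glycoprotein gene, rose by less under HGF. Its arrays at 24 h were 7.38 and 7.42 without stimulus, 7.76 and 7.69 with HGF, 8.25 and 8.28 with IL-6, and 8.44 and 8.61 with both. HGF arrays exceeded the unstimulated ones from 0.5 to 24 h and overlapped them at 32 h, whereas IL-6 arrays exceeded them at 0.5, 2, 16, 24 and 32 h. The HGF difference was largest at 8 h (0.57, SE 0.09), and that of IL-6 at 24 h (0.86). Late differences were 0.29, 0.69 and 0.93 (SE 0.05) under HGF, IL-6 and both, with limma adjusted p-values of 8.06e-06, 3.26e-15 and 5.9e-20. Abcb1a and Abcb1b are close paralogues, so a value under either name can hold signal of the other.

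The bile salt export pump Abcb11 declined in all cultures, and at 16 h it was higher with HGF. Unstimulated arrays were 6.27 and 6.37 at 16 h, HGF arrays 7.08 and 7.18, IL-6 arrays 5.43 and 6.01, and combination arrays 6.31 and 6.56. HGF arrays thus lay above and IL-6 arrays below, with the combination overlapping the unstimulated ones. By 24 h the HGF difference was -0.12 (SE 0.15, adjusted p = 0.58 within that hour), and at 32 h the HGF arrays disagreed, at 5.96 and 5.10, around unstimulated values of 5.38 and 5.48. Over 16 to 32 h Abcb11 differed by 0.26 under HGF (SE 0.08, limma adjusted p = 0.00871), -0.38 under IL-6 (adjusted p = 0.000228) and -0.05 under both (adjusted p = 0.658). Without the HGF array of 32 h, replicate 1, the HGF value was 0.12 (adjusted p = 0.182).

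Abcc2, which exports glucuronide and glutathione conjugates into bile, climbed in culture and climbed less with IL-6. At 24 h the unstimulated arrays were 11.63 and 11.69, HGF arrays 11.93 and 12.00, IL-6 arrays 10.78 and 10.89, and combination arrays 10.90 and 10.91. IL-6 and combination arrays over 16 to 32 h (10.23 to 10.89 and 10.30 to 10.91) did not reach the unstimulated range of 11.03 to 11.69, while HGF arrays (10.97 to 12.00) overlapped it. Late values of Abcc2 differed by -0.71 under IL-6 (SE 0.05, 1.63-fold lower, limma adjusted p = 8.52e-16), -0.66 under both (adjusted p = 4.93e-15) and 0.18 under HGF (adjusted p = 0.0041). The HGF difference changed sign with the hour: 0.56 at 2 h and 0.51 at 4 h, -0.31 at 8 h, -0.03 at 16 h, 0.30 at 24 h and 0.26 at 32 h (SE 0.09). From 4 to 8 h the unstimulated mean went up by 0.90 and the HGF mean by 0.09, across the change in the dap control for the unstimulated arrays.

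Abcg5 and Abcg8 encode the partner subunits of 1 sterol exporter and are transcribed head to head on chromosome 17, with RefSeq starts 110 bases apart. RefSeq also has another Abcg8 start, at base 84676302, within the annotated Abcg5 gene (84658174 to 84683011). Abcg5 arrays at 16 h were 6.07 and 5.97 without stimulus, 4.93 and 4.94 under HGF, 5.02 and 4.95 under IL-6, and 4.69 and 4.76 under both, so all treated arrays lay below. By 32 h the unstimulated arrays had come down to 5.16 and 4.95, beside 4.90 and 4.97 under HGF. Late differences of Abcg5 were -0.56, -0.45 and -0.67 (SE 0.07), with limma adjusted p-values of 5.29e-09, 7.73e-07 and 2.72e-11. At the same 16 h Abcg8 read 6.47 and 6.59 in unstimulated cells, 6.36 and 6.06 under HGF, 6.38 and 6.20 under IL-6, and 6.14 on both combination arrays. Abcg8 moved less: its late differences were -0.27 (SE 0.08, adjusted p = 0.00539) under HGF, -0.19 (adjusted p = 0.0568) under IL-6 and -0.32 (adjusted p = 0.000905) under both. With IL-6 it did not pass, but it did without the IL-6 array of 16 h, replicate 1 (-0.22, adjusted p = 0.0409), without that of 24 h, replicate 2 (-0.26, adjusted p = 0.0102), with the 60th percentile filter (adjusted p = 0.0473) and with the compared arms alone (adjusted p = 0.0478). The difference between Abcg5 and Abcg8 was not tested.

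Abcg2, the breast cancer resistance protein that exports drugs and porphyrins, had small differences on a high and falling signal. At 32 h it read 10.48 and 10.59 in unstimulated cells, 10.47 and 10.35 under HGF, 10.40 and 10.33 under IL-6, and 10.06 and 10.04 under both. The combination arrays lay lowest at 24 and 32 h. Its 7-hour call under HGF was a rise, from a difference of 0.18 at 4 h, when the dap control differed between the arrays, whereas the late difference was a fall. Late differences were -0.08 (SE 0.03, limma adjusted p = 0.00986), -0.19 (adjusted p = 3.96e-08) and -0.39 (adjusted p = 2.07e-17). The HGF call was lost on leaving out the unstimulated array of 32 h, replicate 2 (-0.06, adjusted p = 0.0651), the HGF array of 24 h, replicate 2 (-0.05, adjusted p = 0.088), or the HGF array of 32 h, replicate 2 (-0.06, adjusted p = 0.0759).

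**Figure D2:**
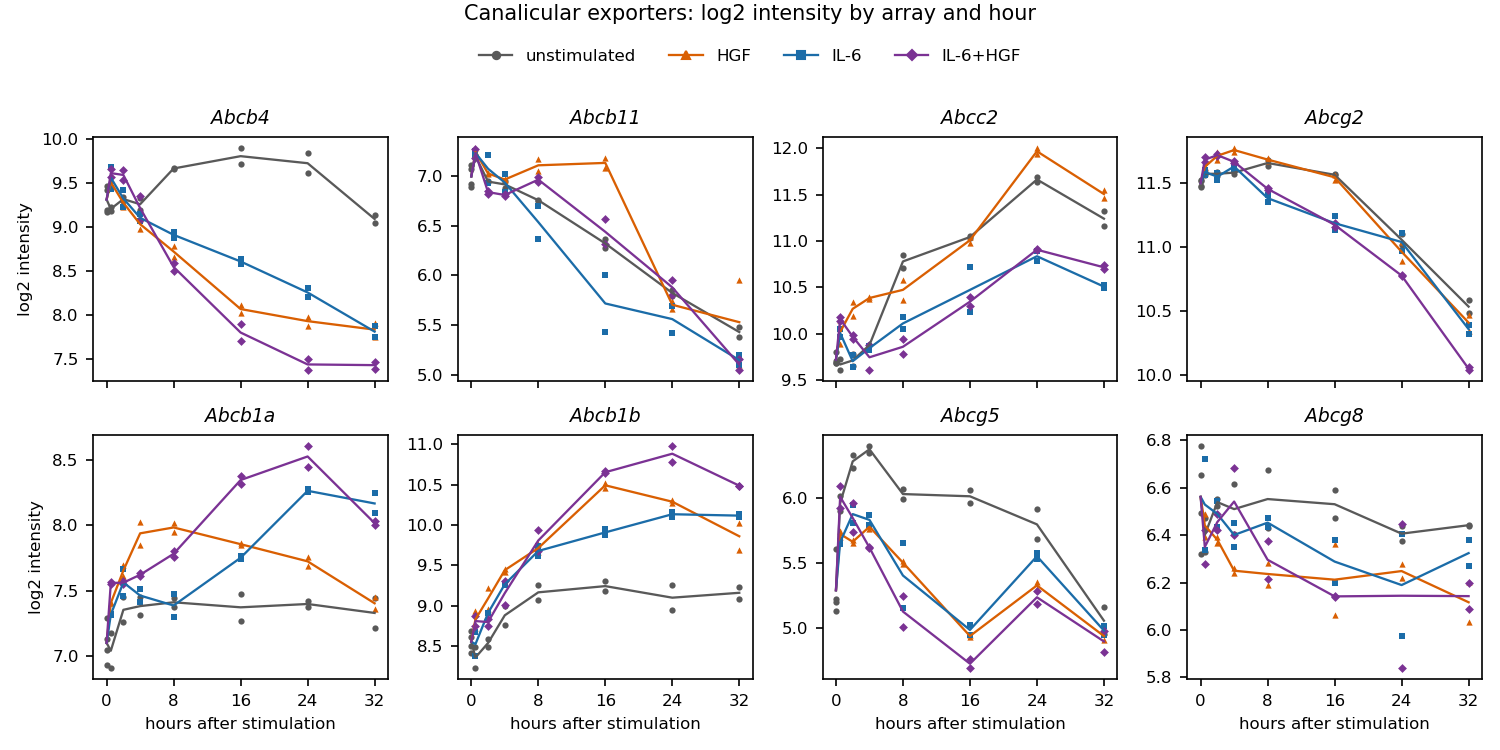
Log2 intensity of the 8 canalicular exporters on every array (points) with group means (lines) over hours after stimulation, for unstimulated, HGF, IL-6 and combination cells; lines of treated cells start at the shared 0 h mean. Abcb4 separates downwards from 8 h on in all treated cells and Abcb1b upwards, while Abcb11 with HGF is at 7.08 and 7.18 at 16 h.

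The 5 basolateral exporters included no rise past the test under IL-6 or the combination. Over the 7 hours HGF raised 2 and lowered 3, IL-6 lowered 3, and the combination lowered 5, in tests that called 62.6%, 55.1% and 68% of all genes. Over 8 to 32 h the counts were 2 rises and 2 falls, 4 falls, and 3 falls. By the late difference HGF gave 2 rises and 2 falls, IL-6 3 falls and the combination 4 falls. Abcc1 and Abcc4 were higher with HGF and lower with IL-6.

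Abcc4, an exporter of bile salts and cyclic nucleotides to the blood side, had the largest change of any member with culture time. Its mean was 6.81 at 0 h (SD 0.13, n = 4), and at 24 h the arrays were 10.54 and 10.47 without stimulus, 10.98 and 11.01 with HGF, 9.66 and 9.63 with IL-6, and 10.08 and 10.02 with both. All 4 conditions had risen, with HGF highest and IL-6 lowest and no overlap at that hour. The late difference was 0.32 under HGF (SE 0.09, 1.25-fold, limma adjusted p = 0.00177), -0.73 under IL-6 (1.66-fold lower, adjusted p = 9.17e-10) and -0.45 under both (adjusted p = 1.42e-05).

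Abcc1, an exporter of glutathione conjugates and leukotrienes, showed the same order at 24 h: 9.25 and 9.21 under HGF, 8.51 and 8.63 without stimulus, 8.35 and 8.49 under both, and 7.92 and 7.95 under IL-6. Its late difference was 0.64 under HGF (SE 0.07, limma adjusted p = 2.1e-10), -0.39 under IL-6 (adjusted p = 1.63e-05) and -0.02 under both (adjusted p = 0.839). The 7-hour call under both was a fall, from -0.45 at 4 h, where the dap control differed. HGF arrays lay above the unstimulated ones at all 7 hours. Its dimmer probe set (mean 4.76) gave 0.18 under HGF (adjusted p = 0.103). Beside these rises with HGF, the log2 of the summed intensities of 4 cholangiocyte markers was taken over 16 to 32 h. It was 8.85 to 10.1 under HGF and 8.67 to 9.10 in unstimulated cells. Under IL-6 it was 8.39 to 9.49 and under both 8.72 to 9.35, and its part was not tested.

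Abcc3, which returns conjugates to the blood, fell most under HGF. Its arrays at 24 h were 9.99 and 10.19 without stimulus, 9.45 and 9.46 with HGF, 9.91 and 9.88 with IL-6, and 9.68 and 9.57 with both. HGF arrays lay below the unstimulated ones at all 7 hours. In late hours Abcc3 differed by -0.45 under HGF (SE 0.04, limma adjusted p = 2.38e-13), -0.33 under both (adjusted p = 6.84e-10) and -0.10 under IL-6 (adjusted p = 0.0368). The IL-6 call was lost on leaving out any of 6 arrays in turn, with values of -0.10 to -0.06.

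Abcc6, whose loss in humans calcifies connective tissue, read 5.55 and 5.60 at 24 h in unstimulated cells, 5.05 and 5.22 under HGF, 5.23 and 5.37 under IL-6, and 4.63 and 4.71 under both. All treated arrays lay below, those of the combination lowest. Late differences were -0.29 (SE 0.09, limma adjusted p = 0.00374), -0.18 (adjusted p = 0.0905) and -0.60 (adjusted p = 5.29e-08). The IL-6 value passed without the unstimulated array of 16 h, replicate 1 (-0.27, adjusted p = 0.013), or the IL-6 array of 32 h, replicate 1 (-0.27, adjusted p = 0.0105). Abcc5, a nucleotide exporter, had late differences of -0.03 and -0.08 that did not pass under HGF and IL-6, and fell by 0.14 under both. Its 7-hour calls under HGF and both were falls at 0.5 h, when the dap control differed.

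Among 8 tested cholesterol and phospholipid transporters, HGF gave 1 rise and 1 fall over the 7 hours, IL-6 1 and 1, and the combination 1 and 2. These tests called 62.6%, 55.1% and 68% of all genes. Over 8 to 32 h the counts were 0 and 1, 1 and 1, and 2 and 2, where 55.1%, 42% and 57.2% of all genes were called. Over the 7 hours Abca1 was the member that rose in each case, and Abca3, a phospholipid transporter of lamellar bodies in the lung, fell in each. Over 8 to 32 h Abca1 did not pass under HGF. Abca4 also fell under the combination.

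Abca1, the cholesterol exporter that starts HDL formation, was higher with IL-6 at 2 h and stayed higher. At 2 h it read 9.55 and 9.59 in unstimulated cells, 9.88 and 9.75 with HGF, 10.39 and 10.34 with IL-6, and 10.24 and 10.17 with both. At 16 h the arrays were 8.97 and 9.08, 9.15 and 9.18, 9.97 and 10.17, and 10.06 and 10.10 in the same order. IL-6 and combination arrays exceeded the unstimulated ones at all 7 hours, and HGF arrays at 0.5, 2, 4 and 16 h. Late Abca1 differences were 0.92 under IL-6 (SE 0.04, 1.89-fold, limma adjusted p = 4.41e-24), 0.83 under both (adjusted p = 7.95e-23) and 0.06 under HGF (adjusted p = 0.231). The HGF difference of 0.36 (SE 0.07) at 4 h fell in the hours when the dap control differed between the arms, and the HGF test over 8 to 32 h gave an adjusted p of 0.161. The IL-6 difference at 2 h fell in those hours too. Against HGF arrays, alike in that control, IL-6 arrays were higher by 0.55 at 2 h (SE 0.07). Beside the rise with IL-6, the late log2 of the summed intensities of 6 Kupffer cell markers was 8.20 to 8.52 under IL-6. It was 8.08 to 8.29 under both and 7.97 to 8.30 in unstimulated cells. Of these markers 4 of 6 rose over the 7 hours with IL-6, where 23.4% of all genes rose. The part of these markers in the Abca1 values was not tested.

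Abcg1, which moves cholesterol to HDL particles and is best known from macrophages, did not pass over all hours or by the late difference under any treatment. At 8 h its mean was higher with the combination, at 5.56 against 5.22 in unstimulated cells. At 16 h its arrays were 5.18 and 5.39, against 5.30 and 5.13 under HGF, 5.35 and 5.54 under IL-6, and 5.55 and 5.53 under both. Late differences were -0.06, 0.10 and 0.13 (SE 0.07), with limma adjusted p-values of 0.542, 0.346 and 0.143, and the combination passed on leaving out its 32 h array, replicate 1 (0.18, adjusted p = 0.0494). Abca3 fell by 0.39, 0.28 and 0.44 under HGF, IL-6 and both. Abca4, the retinal lipid flippase, fell by 0.32 under both. The late differences of Abca2, Abca7, Abca12 and Abcg1 lay between -0.14 and 0.13 and did not pass, while Abcg4 passed at -0.14 under the combination.

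**Figure D3:**
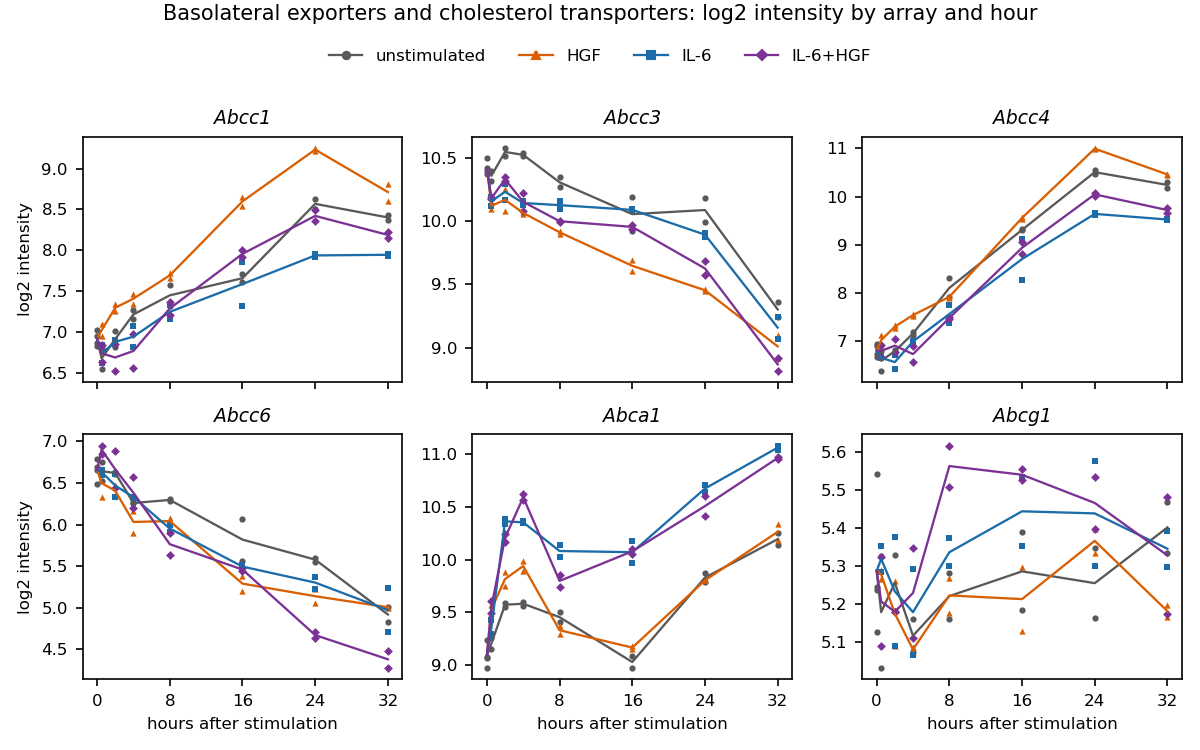
Log2 intensity of Abcc1, Abcc3, Abcc4, Abcc6, Abca1 and Abcg1 on every array (points) with group means (lines) over hours after stimulation in the 4 conditions; lines of treated cells start at the shared 0 h mean. Abcc1 and Abcc4 at 24 h run from IL-6 at the bottom to HGF at the top, and Abca1 is high with IL-6 with or without HGF.

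Of the ABCA6-like subfamily, a cluster of lipid transporter genes of little known function, 4 of 5 tested members fell under each treatment. This held over all hours and over 8 to 32 h, and Abca9, which was near background, did not pass. Among all genes, falls over the 7 hours made up 32.8%, 31.7% and 36.7% under HGF, IL-6 and both. Over 8 to 32 h they made up 27.9%, 23.3% and 28.7%. Abca8b, Abca8a, Abca9, Abca6 and Abca5 stand in that order on chromosome 11 within 405.5 kb (GRCm38.p6). The 4 were lowest with the combination. Beside this group, the log2 of the summed intensities of 5 stellate and fibroblast markers was 7.13 to 7.41 with the combination. In unstimulated cells it was 7.25 to 7.43, an overlapping range.

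Abca6 at 24 h read 7.96 and 7.83 in unstimulated cells, 7.45 and 7.38 under HGF, 7.33 and 7.33 under IL-6, and 6.72 and 6.74 under both. Treated arrays lay below the unstimulated ones at every hour from 2 h on. Its late difference was -0.42 under HGF (SE 0.04, limma adjusted p = 6.63e-12), -0.77 under IL-6 (1.71-fold lower, adjusted p = 7.94e-21) and -1.25 under both (2.37-fold lower, adjusted p = 4.17e-29).

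For Abca8b the 24 h arrays were 7.60 and 7.70 without stimulus, 6.80 and 6.78 with HGF, 6.77 and 6.71 with IL-6, and 6.30 and 6.07 with both. The late ranges of unstimulated (7.08 to 7.70) and treated arrays (6.07 to 7.06) did not overlap. Its late differences were -0.77, -0.81 and -1.24 (SE 0.06), the last a 2.35-fold fall with a limma adjusted p of 1.3e-23. Between 4 and 8 h its unstimulated mean went up by 0.46, across the change in the dap control, while that of HGF cells changed by -0.33.

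Abca5, a lysosomal transporter, climbed in unstimulated culture to 9.07 and 8.98 at 32 h, against 8.28 and 8.41 under HGF, 8.40 and 8.45 under IL-6, and 8.09 and 8.12 under both. All treated arrays lay below. The late difference was -0.76 under HGF (SE 0.05, limma adjusted p = 2.47e-16), -0.53 under IL-6 (adjusted p = 2.6e-11) and -0.94 under both (adjusted p = 6.57e-20). Its dim second probe set (mean 3.38) gave -0.13 under HGF (adjusted p = 0.263). Abca8a, a dimmer gene with late differences of -0.43, -0.66 and -0.92 (SE 0.08), had 4.68 and 4.82 under both at 24 h against 5.72 and 5.88 in unstimulated cells.

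**Figure D4:**
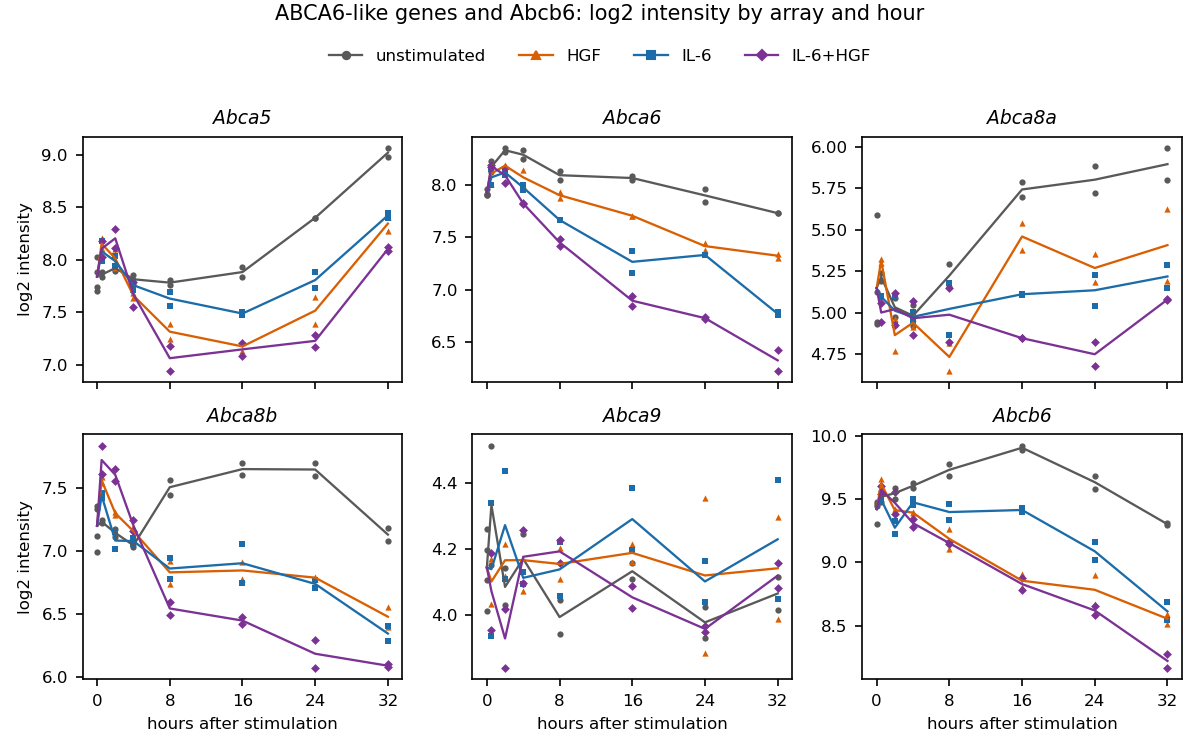
Log2 intensity of Abca5, Abca6, Abca8a, Abca8b, Abca9 and Abcb6 on every array (points) with group means (lines) over hours after stimulation in the 4 conditions; lines of treated cells start at the shared 0 h mean. The combination has the lowest mean at 24 h in all 6 panels, and Abca9, whose arrays lie between 3.84 and 4.51, had no comparison that passed.

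Abcb6, a porphyrin transporter placed here with the mitochondrial ABCB genes, fell under every treatment. At 16 h the arrays were 9.92 and 9.89 in unstimulated cells, 8.91 and 8.80 under HGF, 9.43 and 9.40 under IL-6, and 8.78 and 8.87 under both. HGF and combination arrays lay below both IL-6 arrays, which in turn lay below the unstimulated ones. The late difference was -0.88 under HGF (SE 0.04, 1.84-fold lower, limma adjusted p = 9.11e-24), -0.58 under IL-6 (adjusted p = 6.07e-17) and -1.06 under both (2.08-fold lower, adjusted p = 4.11e-27). Abcb10, a mitochondrial transporter of haem-forming cells, did not pass in these comparisons. Abcb8, a mitochondrial exporter, passed at 0.13 late under the combination. The 7-hour call of Abcb8 was a fall at an early hour, when the dap control differed.

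The remaining members had late differences of at most 0.47 in size. Abcd3, which brings long-chain and bile acid precursors into peroxisomes, fell by 0.36, 0.28 and 0.47 under HGF, IL-6 and both, and its late ranges did not overlap: 11.06 to 11.30 in unstimulated cells and 10.62 to 11.02 in treated ones. Abcd4, a lysosomal cobalamin transporter, fell by 0.18 under IL-6, and the lysosomal peptide transporter Abcb9 fell by 0.18 under both. The ribosome recycling factor Abce1 rose by 0.21, 0.09 and 0.23, and Abcf1, a translation initiation factor, by 0.10, 0.08 and 0.12. Abcf3 fell by 0.20, 0.27 and 0.30. Abcf2 rose late by 0.14 under IL-6 and 0.21 under both, after a fall in the early hours when the dap control differed. Of the potassium channel subunits, Abcc8 did not pass and Abcc9 had a late difference of -0.25 under HGF that passed, beside the fall of endothelial markers under HGF given above, whose part was not tested. Abcc12 was called late at 0.16 under HGF and -0.16 under both, and Abcc10 and Abcg3 did not pass.

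Culture time alone changed most members: against 0 h, 20 rose, 12 fell and 9 did not pass in unstimulated cells, where 75% of all genes were called (40.4% up, 34.6% down). This contrast spans the change in the dap control, so 32 h was also set against 8 h, which gave 9 rises and 16 falls (background 59.9%, with 31.9% up and 28% down). Rises of the unstimulated means by 24 h were 3.70 for Abcc4, 1.94 for Abcc2 and 1.65 for Abcc1, and Abca7 stood 1.27 and Abca5 1.18 higher at 32 h. Abcc6, Abcb11 and Abcc3 stood at -1.74, -1.56 and -1.12 at 32 h against 0 h. Abcc4 still rose by 2.14 from 8 to 32 h. A treated cell was therefore set against unstimulated cells of its own hour throughout.

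The comparisons between treatments hold arrays that were all stimulated, but bioB differed between these too. At 0.5 h it was 8.23 and 8.30 with HGF, 6.89 and 6.82 with IL-6, and 5.90 and 6.01 with both. At 32 h it was 6.79 and 6.74, 5.58 and 5.68, and 5.42 and 5.21 in that order. Its part was not tested. IL-6 against HGF gave 9 rises, 10 falls and 22 members that did not pass over the 7 hours (background 51.2%, with 22.3% up and 28.9% down). With the mean over each gene's probe sets the counts were 4 rises and 11 falls. Late differences reached 2-fold in 1.22% of all genes and, among the members, in Abcc4 (-1.05, SE 0.09, limma adjusted p = 2.29e-14) and in Abcc1 (-1.02, SE 0.07, adjusted p = 1.29e-16). Abcc2 (-0.89) and Abcb11 (-0.65) were also lower with IL-6 than with HGF, and Abca1 (0.86) and Abcb1a (0.40) higher. Adding IL-6 to HGF gave 5 rises and 16 falls (background 41.6%, with 17.7% up and 23.9% down), the largest late ones being Abcc2 at -0.84, Abca6 at -0.83 and Abcc4 and Abca1 at -0.77 and 0.77. Adding HGF to IL-6 gave 9 rises and 12 falls (background 44.1%, with 23.2% up and 20.9% down), with Abcb4 at -0.67 and Abcb1b at 0.62 as the largest. These comparisons share arrays with each other and with the ones above.

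The interaction, the combination minus each single treatment plus unstimulated cells, shows where the log2 effects did not add. Over the 7 hours it was called upward for 9 members, downward for 10 and for neither in 22, against a background of 33.6% (18.9% up, 14.6% down). Late, it was called upward for 9 and downward for 3, against 19.1% (11.8% up, 7.28% down). Abcb4 had the largest late value, 0.93 (SE 0.08, limma adjusted p = 2.59e-13): the single effects of -1.59 and -1.31 sum to more than the -1.98 measured with both. Abcb6 (0.40, SE 0.06), Abca8b (0.35), Abca5 (0.34) and Abcg5 (0.34, SE 0.10) had the same sign on top of falls, so their combined fall was smaller than the sum. Abcb1b had -0.42 (SE 0.09, adjusted p = 0.000374) on top of a rise, again less than the sum. For Abca6 (-0.06, SE 0.06, adjusted p = 0.576) and Abcc2 (-0.13, SE 0.07, adjusted p = 0.258) a departure did not pass. The exception in sign among the named genes is Abcg2, whose value of -0.12 (SE 0.04, adjusted p = 0.0213) stands on top of a fall.

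**Figure D5:**
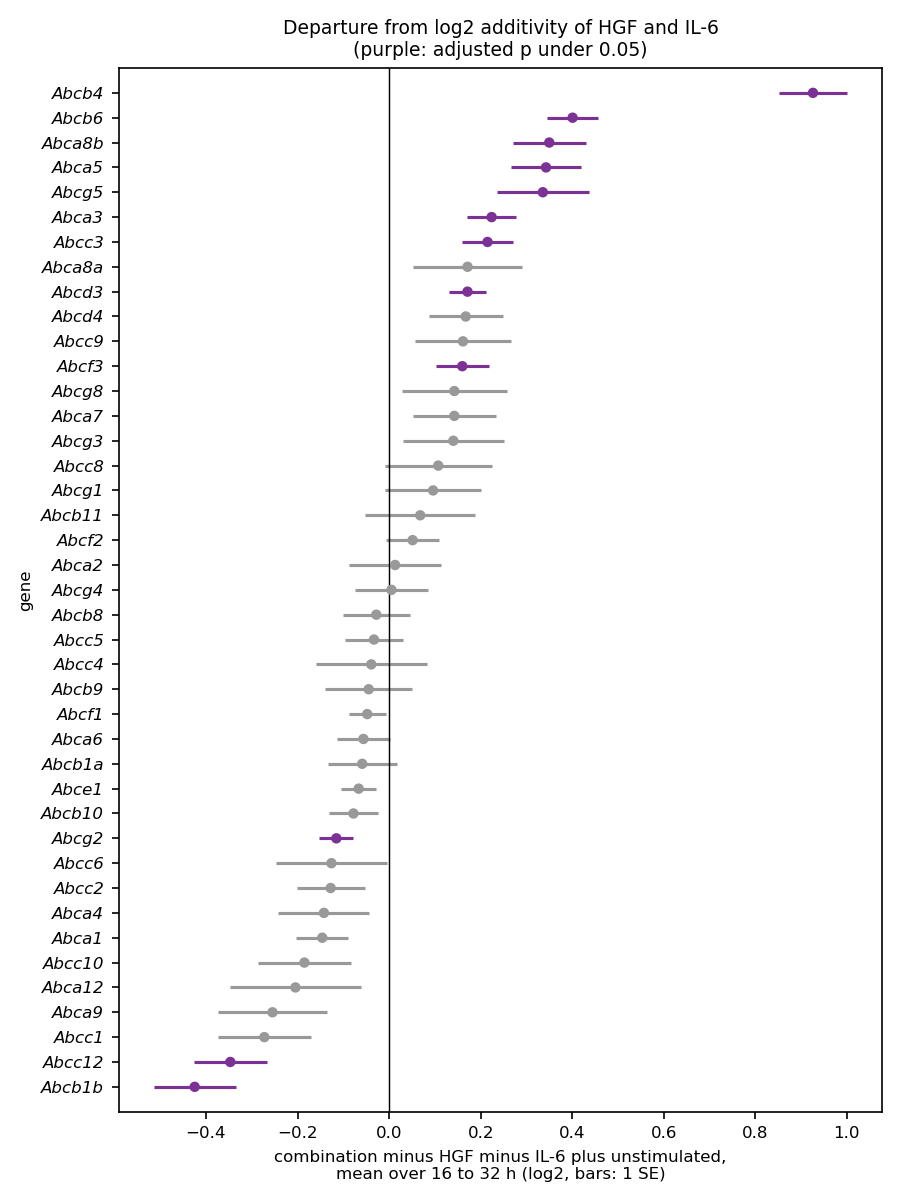
Mean interaction over 16 to 32 h in log2 units (points, bars of 1 SE) for the 41 tested members, purple for an adjusted p under 0.05. Abcb4 stands apart at 0.93, and Abcb1b is lowest at -0.42.

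Other genes of hepatic transport were counted from lists, by the 7-hour test unless the late difference is named. That test called 62.6%, 55.1% and 68% of all genes under HGF, IL-6 and both. Rises made up 29.8%, 23.4% and 31.3%, and falls 32.8%, 31.7% and 36.7%. Of 6 tested uptake carriers of the basolateral membrane, HGF lowered 2, IL-6 lowered 1, and the combination lowered 2 and raised 1 over the 7 hours. Slco1b2, which takes up organic anions and bile acids, had late differences of -0.71, -0.35 and -0.75, and the bile salt importer Slc10a1 -0.49 (adjusted p = 0.000954), -0.18 (adjusted p = 0.281) and -0.36 (adjusted p = 0.0142). The rise under both was that of the organic anion carrier Slco1a4, largest at 0.5 h, when the dap control differed. Its late differences of 0.05 and 0.18 under IL-6 and both did not pass. Of 5 other efflux carriers and flippases HGF lowered 3, and IL-6 and the combination each raised 1 and lowered 2. The flippase Atp8b1, which protects the canalicular membrane, fell with HGF (-0.31) and rose with IL-6 (0.84) and both (0.97), while the cation exporter Slc47a1 stood at -0.60, -0.83 and -0.98. The copper exporter Atp7b had late differences of -0.38, -0.06 and -0.14, of which that under IL-6 did not pass. Its 7-hour fall was largest at 4 h under each treatment, when the dap control differed. Among 10 tested nuclear receptors and factors of transporter genes, HGF raised 1 and lowered 9, IL-6 raised 1 and lowered 8, and the combination raised 1 and lowered 9. By the late difference 1 rose and 8 fell under HGF and under both, and 2 rose and 4 fell under IL-6. Late calls covered 47.2% of all genes under HGF, 51.2% under both and 38.7% under IL-6. Nr1h4, the bile acid receptor FXR, had late differences of -1.01, -0.67 and -1.20 (SE 0.06), and Nr1i2, the xenobiotic receptor PXR, -0.84, -0.58 and -1.03 (SE 0.09). Nr5a2 (LRH-1) had late differences of -0.66, -0.12 and -0.29 under HGF, IL-6 and both. The sterol receptor Nr1h3 (LXR alpha) had -0.46, -0.24 and -0.37 in the same order. Of 8 apical anchoring and trafficking genes, HGF raised 2 and lowered 5, IL-6 raised 2 and lowered 4, and the combination raised 3 and lowered 5. Some of these calls were largest at 0.5 to 4 h, when the dap control differed, and did not pass late. Examples are the fall of Rab11a under IL-6 (late -0.01) and the rise of Myo5b under both (late -0.02). Moesin (Msn) rose by 0.81, 0.48 and 1.03, and radixin (Rdx), the main linker of canalicular transporters to actin, fell by 0.26, 0.26 and 0.30. The scaffold gene Slc9a3r1 fell by 0.34 under HGF and by 0.15 under both, and rose by 0.20 under IL-6. The peptide transporters Tap1 and Tap2, ABC proteins outside the symbol rule, both fell over the 7 hours under HGF and rose under IL-6 and under both. The HGF difference was largest at 4 h, when the dap control differed. Late values of Tap1 were -0.09 (adjusted p = 0.157), 0.25 and 0.24 under HGF, IL-6 and both, and those of Tap2 were 0.09 (adjusted p = 0.0495), 0.28 and 0.34, so that Tap2 was called upward late under HGF.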

How the data were processed

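Values were the log2 intensities deposited for 45101 probe sets on 60 Affymetrix arrays; the authors' summarisation and scaling are not given in the sources used here. Medians of the arrays lay between 4.88 and 4.97, so the values were used as deposited. Probe sets were named through the platform's annotation and RefSeq (34958 with 1 symbol; 932 with several and 9211 with none were left out). None of the 1770 pairs of arrays was identical. Condition and hour in the labels gave 29 groups. limma 3.58.1 in R 4.3.3 fitted 1 mean per group to 14513 genes (eBayes with trend, 31 residual degrees of freedom), with Benjamini-Hochberg adjustment over all of them (within the hour for single hours). The fit was tested on simulated data. The number of arrays limits the precision.

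Members, lists and tests were chosen with earlier results of these data known. Given in full were 8 canalicular, 4 basolateral and 2 lipid genes and, for each treatment, the 5 members with the largest late difference past the test; other transport lists give counts and the 2 genes of smallest adjusted p. Members outside this rule whose values are printed were chosen after their values were seen. Alternatives tried were quantile normalization, 2 other filters, the mean over probe sets, the second probe set, later hours alone, the arms compared alone, 2 variance models, a 2-fold minimum, the replicate number as a block, and leaving out each array.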

Additional observations from a re-analysis of the deposited data

Results flagged for a closer look

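The effect of HGF differed with and without IL-6 for 8 of the 18 genes given in full, by the interaction term over 16 to 32 h in limma: Abcb4 at 0.93, Abcb6 at 0.40, Abca8b at 0.35, Abca5 at 0.34, Abcg5 at 0.34, Abcc3 at 0.22, Abcg2 at -0.12 and Abcb1b at -0.42 on the log2 scale. For Abcb4 the HGF effect was -1.59 without IL-6 and -0.67 with it, and for Abcb1b 1.05 and 0.62. The effect without IL-6 is taken against unstimulated arrays, which differed in bioB from stimulated ones at these hours. The part of that control was not tested. At 0 h, 1 of the 4 unstimulated arrays stood apart for Abcc10, at 5.04 against 4.85, 4.85 and 4.87, a gap of 0.892 of the whole range, past Dixon's critical value for 4 values. Among 45 genes looked at in this way, chance gives about 1 in 20.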

How the results depend on the processing

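Counts of called members over the 7 hours and over 16 to 32 h stayed within 1.5 times under quantile normalization, both filters, both variance models, the arms compared alone and the later hours alone. A 2-fold minimum left, over the 7 hours, 4 members for HGF, 4 for IL-6, 10 for both, 1 for both against HGF, 0 for both against IL-6, 4 for IL-6 against HGF, 0 for the interaction, 10 for culture time and 7 for 32 against 8 h. Over 16 to 32 h it left 2, 1, 5, 0, 0, 2 and 0 in the same order of the first 7, and limma with an unadjusted p under 0.05 also gave 0 at each 0. With the mean over probe sets the interaction called 12 members over the 7 hours instead of 19. Leaving out 1 array in turn gave 23 to 24 late calls for HGF, 21 to 24 for IL-6, 26 to 28 for both and 10 to 13 for the interaction, and over the 7 hours 26 to 28, 23 to 25, 27 to 30 and 17 to 20. The dim second probe set of Abcb1b turned the late Abcb1b difference to -0.091 under HGF and -0.0031 under both. With the replicate number as a block, late calls were 24 for HGF, 24 for IL-6 and 28 for both. In that limma fit the late Abcg8 difference under IL-6 passed (-0.19, adjusted p = 0.0481). Same-numbered arrays deviated with correlations of -0.27 to 0.25 over 378 pairs, with a median of -4e-04. These correlations cannot settle whether the numbers mark common cultures or animals. Of 648 late values of named genes with 1 array left out, 633 kept their direction and side of the threshold.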
